A study of Mus musculus with 8 samples.

Results

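Collagens, laminins and the proteins that link them form the basement membrane and the fibrillar matrix around brain vessels and under the meninges, and 59 protein-coding genes for these proteins were followed here in sorted cells of the mouse cerebral cortex. They were chosen by symbol alone: every collagen chain (Col followed by chain numbers), every laminin alpha, beta and gamma chain, both nidogens, perlecan (Hspg2) and agrin (Agrn), out of 55573 annotated genes. The symbol rule uses no measured value, but it was set with earlier results of these data known. Of the 59 genes, 55 had enough reads to be tested and 42 reached a mean of 5 CPM or more (reads scaled to a common library total) in at least 1 group. Those 42 are named with their values. The other 17 are given by counts and ranges, except where a chain of the same trimer as a named gene is described.

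RNA came from tdTomato-positive cortical cells of mice on a C57BL/6 background that carried PV-Cre (Cre recombinase driven from the parvalbumin locus) and a tdTomato reporter in all 4 groups. WT mice had wild-type Dnmt1, the gene of the maintenance DNA methyltransferase, and KO mice carried the Dnmt1 loxP2 allele, made in a B6;129Sv stock, in which exons 4 and 5 are flanked by loxP sites. Mice were 6 or 18 months old, which gives WT and KO groups at each age with 2 technical replicates per group. Cells were pooled from 6 WT and 6 KO mice. With such pools, the p-values rest on how far libraries of the same group differ, which may be technical, and carry no information on how far single mice differ.

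In a basement membrane, laminin trimers of an alpha, a beta and a gamma chain assemble into a sheet at the cell surface. Type IV collagen, a triple helix of alpha chains, forms a second network, and nidogens, perlecan and agrin tie the networks to each other and to cell receptors. In the brain, this layer surrounds vessels, where endothelial cells, pericytes and astrocyte endfeet contribute to it, and it underlies the meninges. Fibrillar collagens are mostly products of fibroblasts and skeletal tissues.

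The 8 libraries held 6008175 to 13551218 counts. Libraries of the same group had a Pearson correlation of log2 CPM across genes of 0.982 to 0.993, and the 2 libraries from WT mice at 6 months stood apart, with correlations of 0.910 to 0.958 to the other groups against 0.964 to 0.979 among the other 3 groups. Mean Dnmt1 was 101 CPM in the 6-month WT group and 76.2 in the 6-month KO group (log2 fold change -0.40, edgeR adjusted p = 0.0001) and 80.9 and 75.4 CPM at 18 months (-0.10, edgeR adjusted p = 0.281). These are counts over the whole gene and include exons outside the floxed part. The labelled cell type was parvalbumin interneurons, yet Pvalb had between 0 and 2 reads in each library. Mean summed CPM of 12 oligodendrocyte markers was 14210 to 41571 over the 4 groups, that of 14 astrocyte markers 4671 to 13153, and that of 10 GABA neuron markers 620 to 1268. In such bulk samples, fewer cells of a type and less RNA per cell cannot be told apart.

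Summed over the 59 genes, the level was 3259 ± 16.8 CPM (SD, n = 2 libraries here and below) in the 6-month WT group, 2413 ± 54.5 in the 6-month KO group, 1613 ± 75.9 in the 18-month WT group and 1849 ± 34.2 in the 18-month KO group. WT at 6 months was the group with the highest mean for 41 of the 59 genes, and WT at 18 months was the lowest for 33. Per kilobase of exon, the scale on which genes can be compared, Col11a2 led in every group. Its level was 90.2 ± 0.333 CPM per kb in WT and 38.9 ± 0.128 in KO for the younger mice, and 29.5 ± 0.723 in WT and 26.1 ± 0.850 in KO for the older ones. Agrn followed in every group, at 40.7 ± 1.23, 35.5 ± 2.21, 26.6 ± 1.55 and 25.8 ± 0.232 CPM per kb in the same order. In KO at 18 months Col11a2, Agrn and Lamc1 (25.7 ± 0.404) differed by less than the SD of Col11a2.

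**Figure D1:**
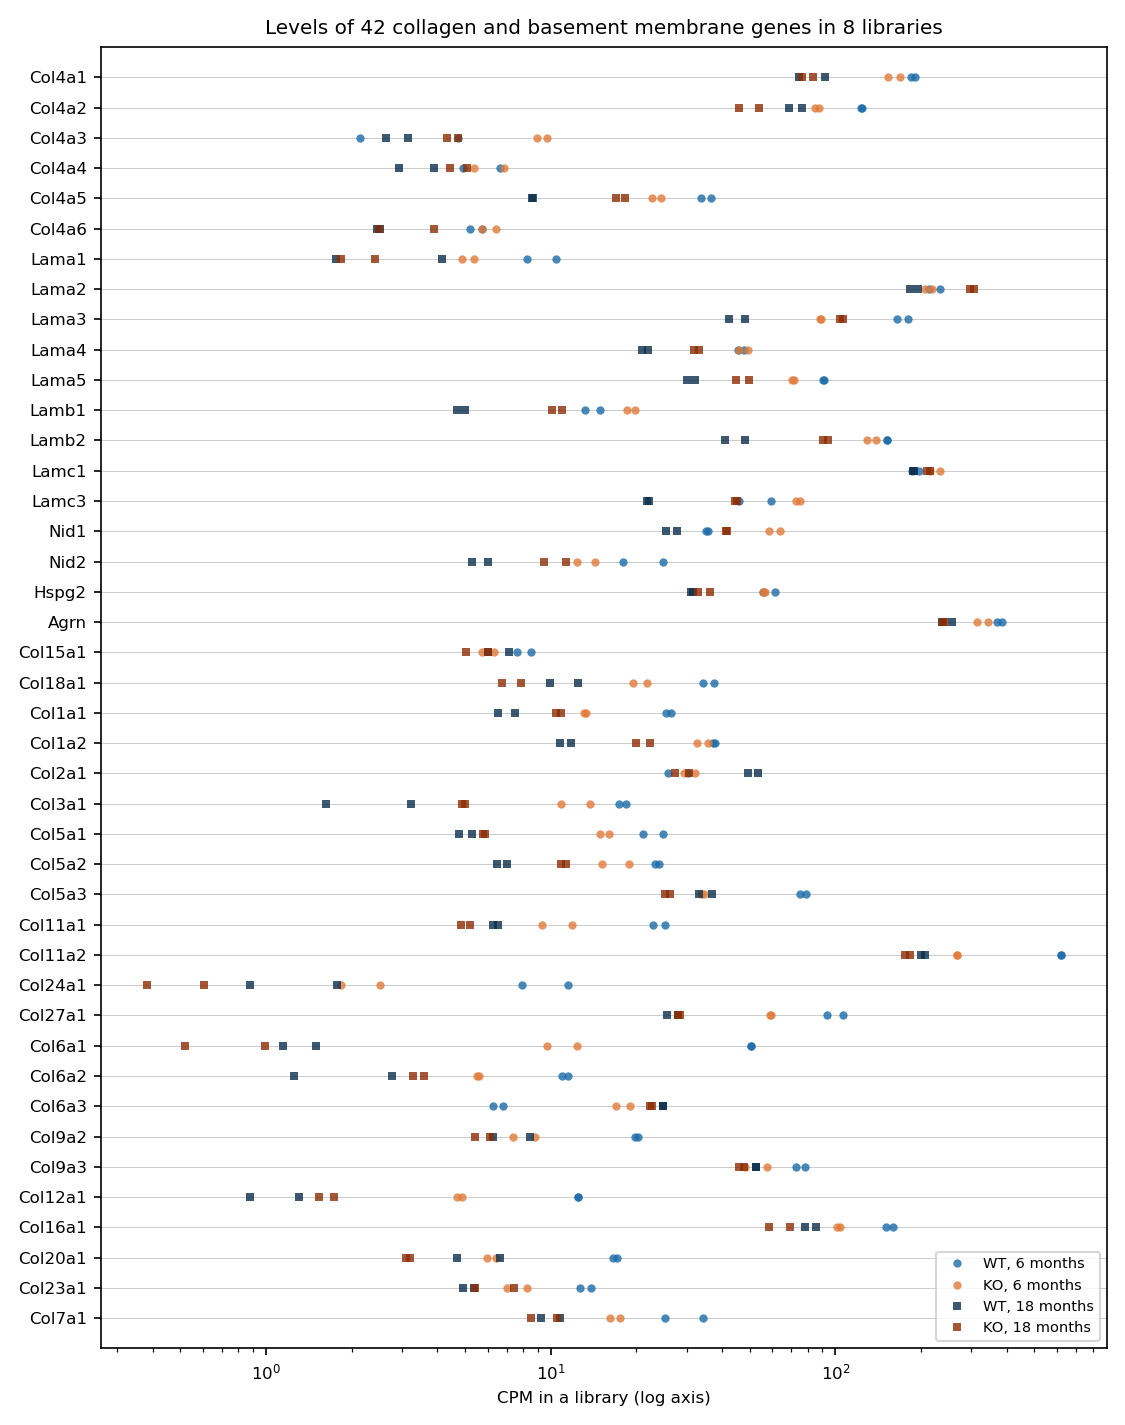
Levels of the 42 genes that reached 5 CPM in a group, grouped by family, with 1 point per library on a logarithmic CPM axis. The blue points of WT at 6 months lie to the right for most genes, and Col6a3 and Col2a1 are the exceptions that are highest in WT at 18 months.

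Upstream sequence is shown for the most abundant of the genes and for the pair of type VI chains that moved in opposite directions, because DNMT1 maintains methylation at CG dinucleotides. The bases precede the RefSeq start of each gene on the GRCm38.p6 assembly, are written in the direction of transcription, lie outside annotated exons, and carry CG in capitals. Col11a2 (plus strand, chr17:34038888-34039137) holds 14 CG in 250 bases. Col6a1 (minus strand, chr10:76726169-76726294) is shown for the 126 bases that lie outside the annotated exons of Col6a1, with 2 CG. The full window of 250 bases, chr10:76726045-76726294, holds 3. Col6a3 (minus strand, chr1:90843972-90844221) also holds 3 in 250 bases. Over the 48 windows available for 43 of the genes the median was 10 CG, against 6 over 32851 windows of the same length. Methylation itself was not analysed here.
Col11a2: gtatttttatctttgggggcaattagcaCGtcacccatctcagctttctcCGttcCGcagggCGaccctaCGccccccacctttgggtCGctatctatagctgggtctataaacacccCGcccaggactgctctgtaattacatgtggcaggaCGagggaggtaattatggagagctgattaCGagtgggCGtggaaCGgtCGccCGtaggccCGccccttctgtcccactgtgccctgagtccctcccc
Col6a1: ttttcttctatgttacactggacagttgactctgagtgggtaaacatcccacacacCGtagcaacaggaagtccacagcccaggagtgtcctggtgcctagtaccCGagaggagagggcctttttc
Col6a3: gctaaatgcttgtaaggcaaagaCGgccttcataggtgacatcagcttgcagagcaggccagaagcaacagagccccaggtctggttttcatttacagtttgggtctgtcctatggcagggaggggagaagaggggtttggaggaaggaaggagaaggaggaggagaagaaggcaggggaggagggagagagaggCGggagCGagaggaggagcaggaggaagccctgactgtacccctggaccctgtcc

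The first comparison asked how the genes differed between 18 and 6 months in WT cells. At 18 months 45 of the 55 tested genes were lower and 2 were higher (edgeR quasi-likelihood test, Benjamini-Hochberg adjusted p under 0.05), where 30.8% of all 18205 tested genes were lower, 28.2% higher and 59.0% called in either direction. The median log2 fold change over the 55 genes was -1.54, against -0.04 over all tested genes, and 36 of them were lower by at least 2-fold. Every family had members that fell, among them all 5 laminin alpha chains, all 3 beta chains, both nidogens, both proteoglycans, 5 of 6 type IV chains and 10 of 11 fibrillar collagens. Only Col6a3 and Col2a1 were higher.

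Among the type IV chains, Col4a1 and Col4a2, the pair that makes the vascular network, fell from 184 and 191 to 74.4 and 92.1 CPM (log2 fold change -1.16, SE 0.0826, edgeR adjusted p = 1.35e-11) and from 124 and 123 to 68.6 and 76.1 CPM (-0.77, SE 0.0803, edgeR adjusted p = 1.36e-08). In neither gene did the WT libraries of the 2 ages overlap. These genes lie head to head on chromosome 8 (mm10, 11198423 to 11312826 and 11312805 to 11449287), with 22 bases shared by their annotated first exons. Col4a5, a chain of the other type IV networks, fell further, from 36.5 and 33.8 to 8.65 and 8.62 CPM (-2.02, SE 0.137). Col4a6 (-1.14) and Col4a4 (-0.80, edgeR adjusted p = 0.0163) also fell. Col4a3, at 2.14 and 4.71 against 2.63 and 3.16 CPM, overlapped between the ages and was not called.

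Laminin chains fell unevenly. Lama3, the alpha chain of epithelial laminins, went from 165 and 180 to 42.4 and 48.0 CPM (log2 fold change -1.92, SE 0.0766, edgeR adjusted p = 2.82e-16). Lama5 (-1.54) and Lama4 (-1.12), the alpha chains of endothelial basement membranes, fell by a similar order, from 90.9 and 90.5 to 30.0 and 32.0 CPM and from 45.3 and 47.8 to 21.9 and 20.9 CPM. Lama1, an alpha chain of meningeal and embryonic basement membranes, fell at a low level, from 10.4 and 8.28 to 1.76 and 4.16 CPM (-1.55). Lama2, the alpha chain whose loss causes congenital muscular dystrophy, showed a small decrease, from 213 and 232 to 182 and 195 CPM (-0.24, SE 0.0636, edgeR adjusted p = 0.00279). The beta chain Lamb2 fell from 152 in both libraries to 40.9 and 48.0 CPM (-1.76), and Lamb1 from 13.2 and 14.9 to 5.02 and 4.70 CPM (-1.54). Of the gamma chains, Lamc3 fell from 45.9 and 59.6 to 21.8 and 22.2 CPM (-1.26). Lamc1, the gamma chain shared by most laminins, held at 197 and 186 against 187 and 189 CPM (-0.03, SE 0.0622, edgeR adjusted p = 0.735). The libraries of both ages overlapped for Lamc1 alone among the laminin chains named.

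The linkers fell to differing degrees. Nid1 went from 35.2 and 35.7 to 27.8 and 25.5 CPM (log2 fold change -0.42) and Nid2 from 17.9 and 24.7 to 6.02 and 5.31 CPM (-1.93). Hspg2, the large heparan sulfate proteoglycan, fell from 61.2 and 55.7 to 31.0 and 31.6 CPM (-0.90). Agrn, known for clustering acetylcholine receptors, fell from 386 and 370 to 236 and 257 CPM (-0.61). The multiplexin Col18a1, source of endostatin, fell from 37.5 and 34.4 to 9.91 and 12.5 CPM (-1.65). Its relative Col15a1, at 8.56 and 7.63 against 7.15 and 6.00 CPM, was not called (-0.32, edgeR adjusted p = 0.210).

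Fibrillar collagens fell from very different levels. Col11a2, a minor fibrillar chain known from cartilage and the inner ear, fell from 618 and 621 to 199 and 206 CPM (log2 fold change -1.61, SE 0.0562, edgeR adjusted p = 3.21e-17). Col27a1 fell from 106 and 93.6 to 25.7 and 28.1 CPM (-1.88), and Col5a3 from 78.8 and 74.9 to 33.2 and 36.9 CPM (-1.12). The chains of the common fibroblast collagens fell to levels of 1.63 to 11.8 CPM: Col1a1 (-1.88), Col1a2 (-1.72), Col3a1 (-2.78), Col5a1 (-2.17) and Col5a2 (-1.82). Col11a1 (-1.90) and Col24a1 (-2.77) fell as well. Col2a1, the main collagen of cartilage, rose from 25.8 and 30.4 to 49.4 and 53.6 CPM (0.88, SE 0.112, edgeR adjusted p = 3.18e-07).

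Type VI collagen, which forms beaded filaments from an alpha 1, an alpha 2 and an alpha 3 chain, showed the widest divergence. Col6a1 (ENSMUSG00000001119) was at 50.7 CPM in both WT libraries at 6 months and at 1.50 and 1.15 CPM at 18 months, a decrease of 38.9-fold (log2 fold change -5.28, SE 0.209, edgeR adjusted p = 2.57e-16). Col6a2 fell from 11.0 and 11.5 to 1.25 and 2.77 CPM (-2.38, SE 0.272). Col6a3 (ENSMUSG00000048126) rose from 6.25 and 6.82 to 24.8 CPM in both libraries (1.92, SE 0.161, edgeR adjusted p = 2.58e-10). Per kilobase of exon, the ratio of Col6a3 to Col6a1 was 0.0452 and 0.0493 in the WT libraries at 6 months and 6.04 and 7.86 at 18 months. In the KO libraries it was 0.563 and 0.642 at 6 months and 8.34 and 15.7 at 18 months.

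**Figure D2:**
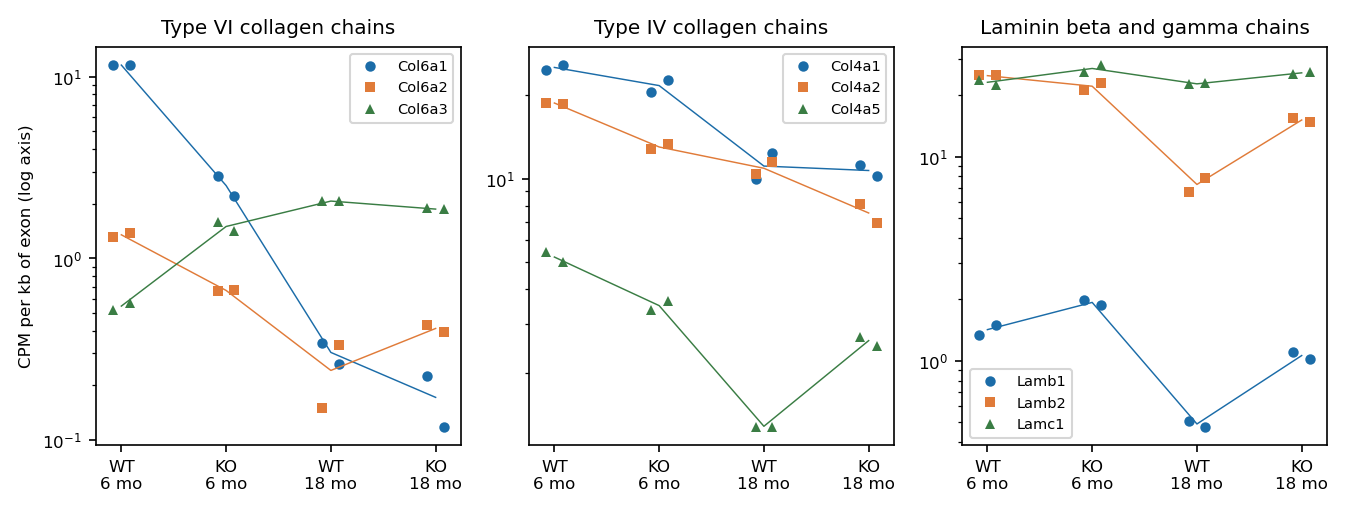
Level per kilobase of exon of chains of type VI collagen, type IV collagen and laminin. Each library is 1 point, lines run through the group means, and the logarithmic axis is in CPM per kb. Col6a1 declines across the groups while Col6a3 is lowest in WT at 6 months, and Lamc1 is nearly level while Lamb2 and Lamb1 are lowest in WT at 18 months.

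Fibril-associated collagens, which decorate fibril surfaces, fell in 6 of 8 tested genes in WT. Col12a1 fell from 12.5 CPM in both libraries to 0.878 and 1.31 CPM (log2 fold change -3.44, SE 0.282). Col16a1 fell from 151 and 159 to 78.2 and 85.6 CPM (-0.91), Col20a1 from 16.6 and 17.1 to 6.65 and 4.70 CPM (-1.61), and Col9a2 from 20.2 and 19.8 to 6.27 and 8.47 CPM (-1.41). Col9a3, its partner in type IX trimers, fell from 72.6 and 78.1 to 52.8 and 52.6 CPM (-0.52). The ratio of Col9a3 to Col9a2 per kilobase averaged 3.02 at 6 months and 5.88 at 18 months in WT. Transmembrane Col23a1 (-1.37) and the anchoring-fibril chain Col7a1 (-1.55) fell to 4.93 to 10.8 CPM. Left-out libraries changed 2 WT age calls: Lama2 had an edgeR adjusted p of 0.0718 without the 18-month WT replicate 1 and 0.0847 without the 6-month WT replicate 2, and Col4a4 had 0.171 without the 18-month and 0.172 without the 6-month WT replicate 2.

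Marker genes of other cell types moved with these decreases in WT, and their part in the result was not tested. All 13 pericyte and smooth muscle markers fell with age in WT, from a sum of 2188 and 2214 to 986 and 1009 CPM. All 14 astrocyte markers fell, from 13188 and 13119 to 4659 and 4683 CPM, and 12 of 14 endothelial markers fell, from 779 and 790 to 379 and 377 CPM. Most of that endothelial difference lay in Slco1c1, at 446 and 463 against 112 and 117 CPM, and the other 13 endothelial markers summed to 333 and 327 against 267 and 260 CPM. Of 8 tested fibroblast and leptomeningeal markers, 7 fell, with sums of 90.5 and 107 against 32.0 and 30.9 CPM. The 10 precursor markers of oligodendrocytes went from 4584 and 4644 to 2651 and 2679 CPM, and all 12 oligodendrocyte markers rose, from 14186 and 14234 to 41600 and 41543 CPM. All 9 tested GABA neuron markers fell, with sums of 1288 and 1249 against 596 and 644 CPM. Of 8 tested excitatory neuron markers, 6 fell and 0 rose, with sums of 198 and 188 against 51.7 and 48.8 CPM. Of 10 tested parvalbumin interneuron markers, 6 fell and 2 rose. Microglial and macrophage markers rose in 3 of 11 tested and fell in 0. Those that rose were 27.3% of that list, near the 28.2% of all tested genes that rose, while 30.8% of all fell. No marker on these lists was at 0 in all 8 libraries.

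**Figure D3:**
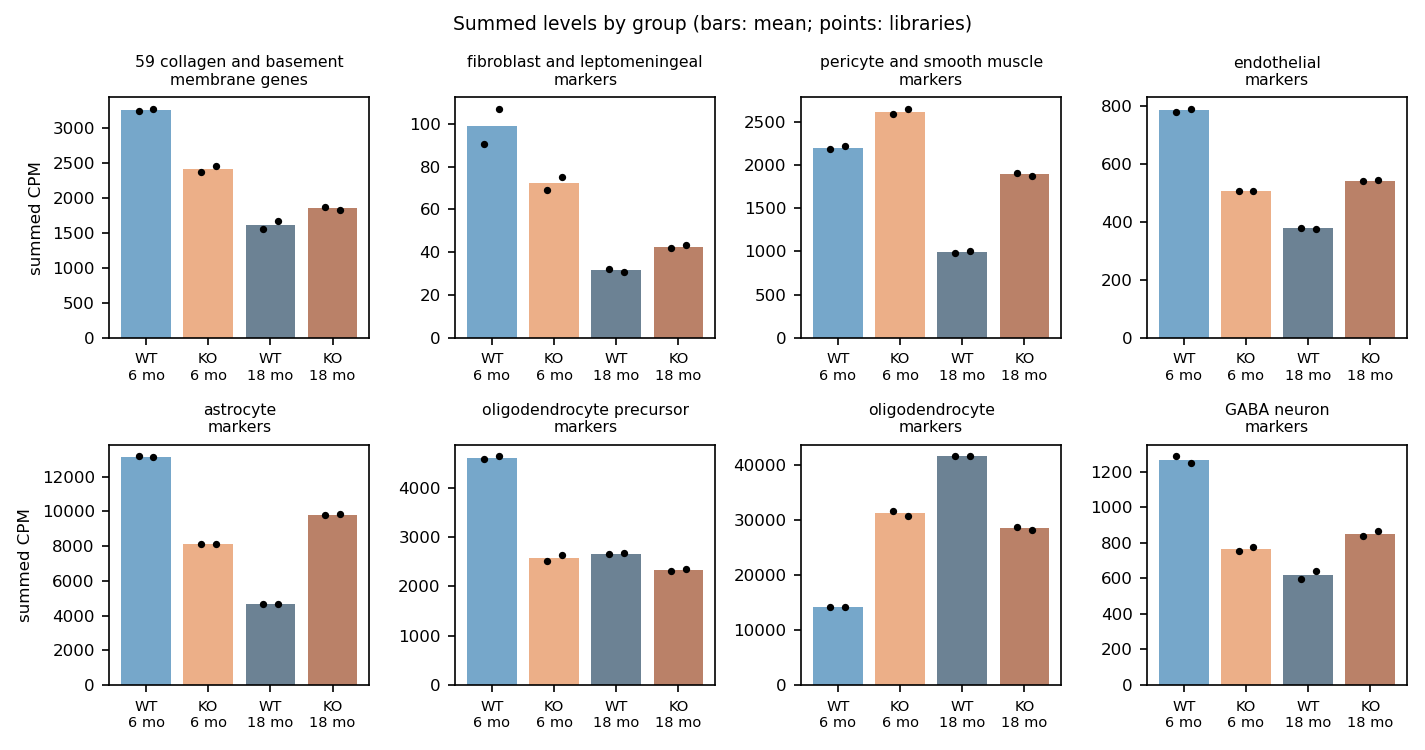
Summed CPM of the 59 genes and of 7 marker lists in each group, with bars for the mean of 2 libraries and points for the libraries. The summed collagen and basement membrane level is 3259 CPM in 6-month WT and 1613 in 18-month WT libraries, and astrocyte, pericyte, endothelial and fibroblast marker sums are also lowest in WT at 18 months.

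The same age comparison in KO cells showed smaller changes. At 18 months 37 of 55 genes were lower and 3 were higher, where 17.9% of all tested genes were lower, 13.8% higher and 31.7% called. The median log2 fold change was -0.69, against 0.00 over all tested genes, and 18 genes were lower by at least 2-fold. Lower at 18 months in both genotypes were 36 genes, which is 80.0% of the 45 in WT and 97.3% of the 37 in KO. Over all tested genes 11.0% were lower in both. Libraries of 18 months did not overlap those of 6 months for 49 of the 55 genes in WT, where 77.4% of all tested genes did not overlap, and for 48 in KO, where 67.3% did not.

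In KO, Col6a1 again showed the largest decrease among the 42 genes, from 12.4 and 9.67 to 0.992 and 0.518 CPM (log2 fold change -3.82, SE 0.273, edgeR adjusted p = 1.65e-10). Col24a1 (-2.12), Col12a1 (-1.56), Col18a1 (-1.51), Col5a1 (-1.40), Col3a1 (-1.32) and Lama1 (-1.28) followed. Col4a1 fell from 153 and 169 to 83.4 and 76.6 CPM (-1.01) and Col4a2 from 84.9 and 87.9 to 53.7 and 46.0 CPM (-0.79), against -1.16 and -0.77 in WT. Col4a3 fell from 9.73 and 8.95 to 4.73 and 4.31 CPM (-1.04, edgeR adjusted p = 0.00129). Hspg2 (-0.69), Nid1 (-0.56) and Agrn (-0.46) also fell. Col6a3 stood at 19.0 and 17.0 against 22.6 and 22.3 CPM (0.32, SE 0.123, edgeR adjusted p = 0.0515).

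The laminin alpha chains parted in KO. Lama2 rose from 219 and 206 to 307 and 297 CPM (log2 fold change 0.51, SE 0.0610, edgeR adjusted p = 7.67e-07), and Lama3 rose from 88.3 and 89.1 to 106 and 104 CPM (0.24, SE 0.0713, edgeR adjusted p = 0.0106). Both had fallen in WT, and no other gene of the 55 was called in opposite directions in the 2 genotypes. Lama4 (-0.55) and Lama5 (-0.59) fell, as did Lamb1 (-0.86), Lamb2 (-0.54) and Lamc3 (-0.73). Lamc1, at 214 and 232 against 210 and 215 CPM, was not called (-0.07, edgeR adjusted p = 0.406).

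In KO, the astrocyte marker sum was 8097 and 8129 CPM at 6 months and 9797 and 9837 at 18 months, with 9 of 14 markers higher. The pericyte and smooth muscle sum was 2586 and 2649 against 1906 and 1877 CPM, with 9 of 13 lower, and the fibroblast sum 69.2 and 75.1 against 42.1 and 43.2 CPM, with 4 of 8 lower. All 8 tested excitatory neuron markers were lower, with sums of 166 and 176 against 24.1 and 27.2 CPM. Microglial and macrophage markers were lower in 10 of 11 tested (178 and 182 against 83.1 and 82.3 CPM), and GABA neuron markers in 6 of 9. Their part in the changes of the KO cells was not tested. Without the 6-month KO replicate 2, or without the 18-month KO replicate 1, the count of higher genes fell from 3 to 1. Among the 42 genes, leaving out single KO libraries removed 5 calls. Lama3 lost its call without either library at 6 months or replicate 1 at 18 months, and Col6a2 without any 1 of the 4. Col4a5 and Col4a6 lost theirs without replicate 2 of either age, and Col5a2 without replicate 1 at 6 months.

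**Figure D4:**
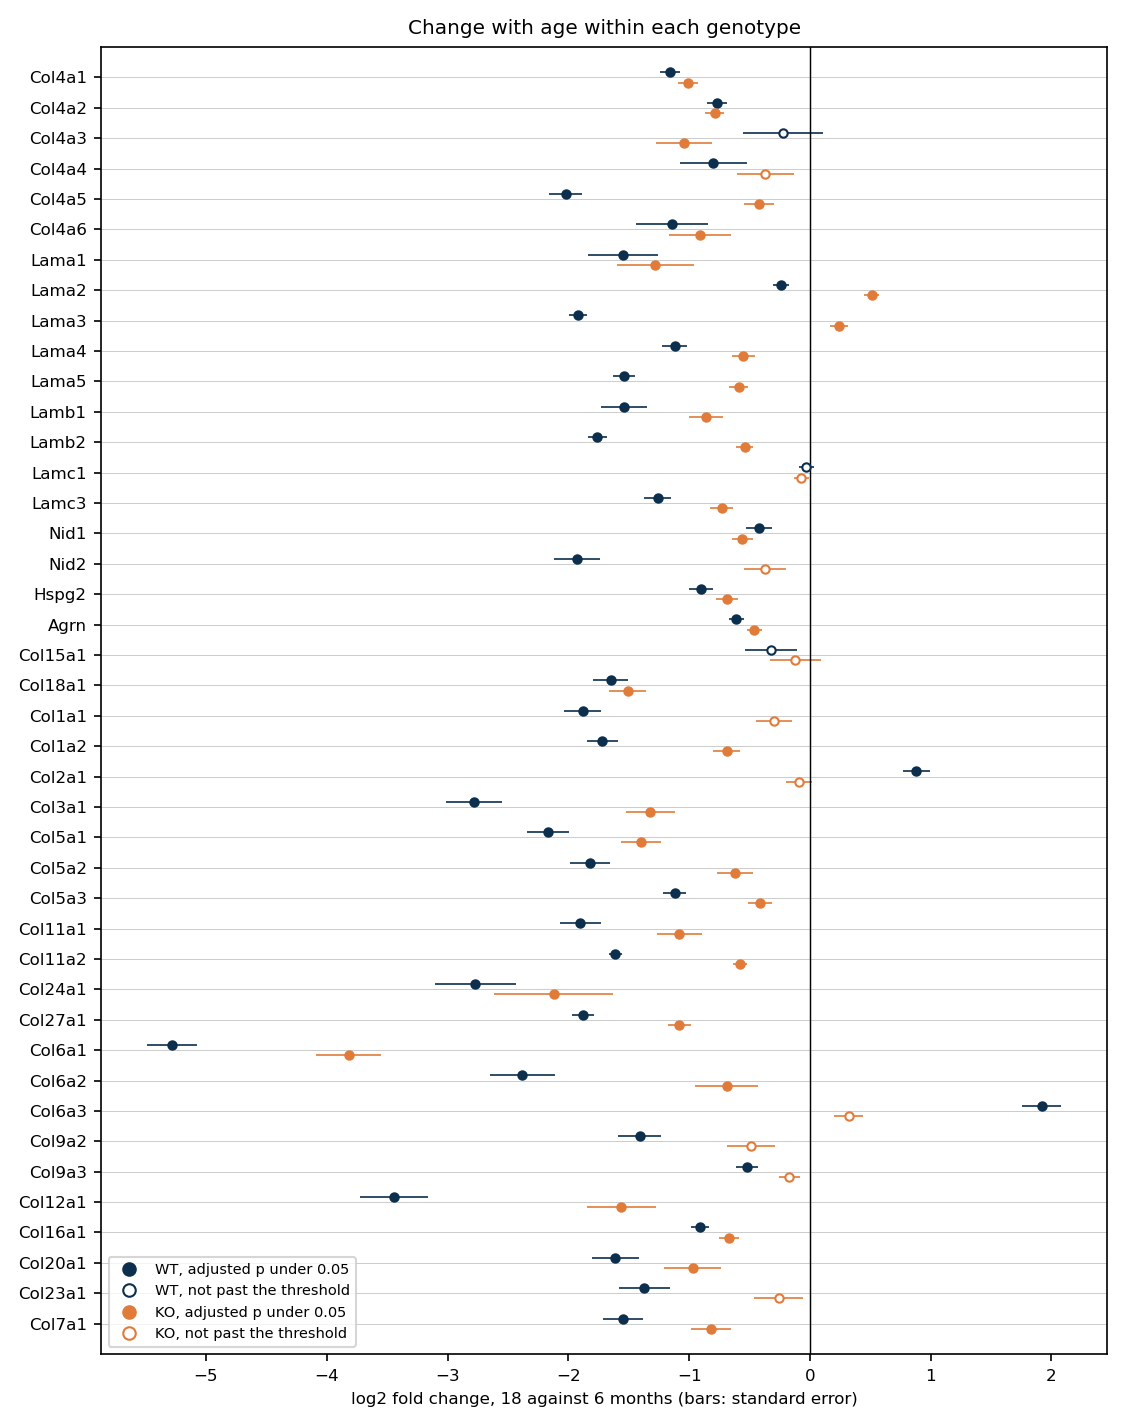
Log2 fold change from 6 to 18 months in WT and in KO for the 42 genes, with bars of 1 standard error. Most genes lie below 0 in both genotypes, Col6a1 lies farthest at -5.28 in WT and -3.82 in KO, and Lama2 and Lama3 lie on opposite sides of 0.

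The next comparison asked how the genes differed between KO and WT cells at 6 months. In KO, 28 of 55 genes were lower and 6 were higher, where 19.6% of all tested genes were lower, 19.2% higher and 38.8% called. The median log2 fold change was -0.44, against 0.00 over all tested genes. This comparison and the age comparison in WT share the WT libraries of 6 months, which stood apart from the other groups.

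The fibrillar and fibril-associated collagens held 14 of the 28 lower genes. Of 11 fibrillar collagens, 9 were lower, led by Col24a1 at 7.90 and 11.5 CPM in WT and 1.83 and 2.51 in KO (log2 fold change -2.16, SE 0.323). Col11a2 was at 618 and 621 CPM in WT and 268 and 267 in KO (-1.21, SE 0.0556, edgeR adjusted p = 4.28e-14), and Col11a1 was at 22.9 and 25.3 against 11.9 and 9.31 CPM (-1.18). Col1a1 (-0.98), Col27a1 (-0.75), Col5a1 (-0.57), Col3a1 (-0.54) and Col5a2 (-0.47) were lower by less. Col1a2, the partner of Col1a1 in type I trimers, was not called at 37.2 and 37.7 against 35.7 and 32.6 CPM (-0.13, edgeR adjusted p = 0.385). The ratio of Col1a1 to Col1a2 per kilobase was 1.35 and 1.28 in WT and 0.692 and 0.770 in KO. Col20a1 (-1.44), Col12a1 (-1.38), Col9a2 (-1.30), Col16a1 (-0.60) and Col9a3 (-0.51) were also lower, as were Col23a1 (-0.79), Col7a1 (-0.82) and Col18a1 (-0.80).

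Col5a3 (ENSMUSG00000004098), at 78.8 and 74.9 CPM in WT and 33.8 and 34.6 in KO (log2 fold change -1.17, SE 0.0951, edgeR adjusted p = 4.67e-10), lies on chromosome 9 at 20770050 to 20815067 (mm10), 92142 bases from Dnmt1. The floxed allele came from a mixed stock, and the part of linked sequence in the result was not tested. The other genes of the set on chromosome 9 lie at least 58.6 Mb away.

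Type VI chains again diverged between the genotypes at 6 months. Col6a1 was at 50.7 CPM in both WT libraries and at 12.4 and 9.67 in KO (log2 fold change -2.20, SE 0.150, edgeR adjusted p = 2.39e-11), and Col6a2 was at 11.0 and 11.5 against 5.50 and 5.61 CPM (-1.02). Col6a3 was higher in KO, at 6.25 and 6.82 against 19.0 and 17.0 CPM (1.46, SE 0.171, edgeR adjusted p = 2.19e-07).

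Basement membrane genes went both ways at 6 months. Lama3 was lower in KO (log2 fold change -0.96, edgeR adjusted p = 1.28e-10), as were Lama1 (-0.86), Nid2 (-0.68), Col4a5 (-0.58), Col4a2 (-0.52), Lama5 (-0.35), Col4a1 (-0.22) and Agrn (-0.20). Nid1, the main nidogen, was higher, at 35.2 and 35.7 CPM in WT and 58.5 and 64.0 in KO (0.79, SE 0.0986, edgeR adjusted p = 5.84e-07). Lamc3 (0.49), Lamb1 (0.45), Lamc1 (0.22) and Col4a3 (1.44, from 2.14 and 4.71 to 9.73 and 8.95 CPM) were higher as well. Lama2 (-0.07), Lama4 (0.03), Lamb2 (-0.18) and Hspg2 (-0.06) were not called.

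Beside these differences, the pericyte and smooth muscle marker sum was 2188 and 2214 CPM in WT and 2586 and 2649 in KO at 6 months, with 6 of 13 markers higher and 1 lower. All 14 astrocyte markers were lower in KO and all 12 oligodendrocyte markers were higher. Of 10 oligodendrocyte precursor markers, 8 were lower in KO, with sums of 4584 and 4644 CPM in WT and 2523 and 2638 in KO. GABA neuron markers were lower in 8 of 9 tested, with sums of 1288 and 1249 against 753 and 778 CPM. Of 14 endothelial markers, 4 were lower and 2 higher, so that 42.9% were called beside 38.8% of all tested genes. Their sum was 779 and 790 CPM in WT and 508 in both KO libraries, of which Slco1c1 held 446 and 463 against 213 and 207. Of 8 fibroblast markers tested, 4 were lower and 2 higher. Their part in the result was not tested. Leaving out 1 library removed 9 of the calls at 6 months. Without WT replicate 1 these were Agrn, Col3a1, Col4a1, Col5a1, Col5a2, Lama1 and Lamb1 (edgeR adjusted p of 0.0538 to 0.129). Without WT replicate 2 they were Col3a1, Col4a1, Lamc1 and Nid2 (0.0718 to 0.168). Without KO replicate 1 they were Agrn, Col4a1, Col5a1, Lama1, Lamb1 and Nid2 (0.0508 to 0.312), and without KO replicate 2 Col3a1, Col5a2, Lama1 and Lamc1 (0.0732 to 0.259).

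At 18 months the balance between the genotypes was different. In KO, 15 of 55 genes were higher and 8 were lower, where 14.7% of all tested genes were higher, 17.4% lower and 32.1% called. The median log2 fold change was 0.22, against 0.00 over all tested genes. Laminins and nidogens made up 10 of the 15 higher genes: 4 of 5 alpha chains, both named beta chains, both named gamma chains and both nidogens.

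Lama3 was at 42.4 and 48.0 CPM in WT and 106 and 104 in KO (log2 fold change 1.21, SE 0.0755, edgeR adjusted p = 1.56e-11). Lama2 (0.68), Lama4 (0.60) and Lama5 (0.60) were higher by less. Lamb2 was at 40.9 and 48.0 against 93.8 and 90.1 CPM (1.04, SE 0.0783, edgeR adjusted p = 3.67e-10), Lamb1 at 5.02 and 4.70 against 11.0 and 10.1 CPM (1.13), and Lamc3 at 21.8 and 22.2 against 45.1 and 44.3 CPM (1.02). Lamc1 was higher by little, at 187 and 189 against 210 and 215 CPM (0.18, edgeR adjusted p = 0.0241). Nid2 (0.88) and Nid1 (0.65) were higher, and Hspg2 (0.14) and Agrn (-0.05) were not called.

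Among the collagens at 18 months, Col4a5 was higher in KO, at 8.65 and 8.62 against 18.2 and 16.9 CPM (log2 fold change 1.03, SE 0.139). Chains of fibroblast fibrils that were higher numbered 4: Col3a1 (0.93), Col1a2 (0.90, from 10.8 and 11.8 to 22.4 and 20.0 CPM), Col5a2 (0.73) and Col1a1 (0.59). Col2a1 was lower, at 49.4 and 53.6 CPM in WT and 30.6 and 27.3 in KO (-0.83, SE 0.100, edgeR adjusted p = 5.48e-07). Col24a1 (-1.51), Col20a1 (-0.80), Col18a1 (-0.65), Col4a2 (-0.54), Col5a3 (-0.45), Col16a1 (-0.36) and Col11a2 (-0.18) were the other lower genes. Col24a1 had few reads at this age, 30 in the WT group and 12 in the KO group, and was not called by DESeq2 (adjusted p = 0.0548). Col4a1 was not called (-0.07), and its ratio to Col4a2 per kilobase was 0.961 and 1.07 in WT and 1.38 and 1.48 in KO. Col6a1 (-0.74, edgeR adjusted p = 0.194) and Col6a3 (-0.14, edgeR adjusted p = 0.360) were not called.

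At the same age, all 14 astrocyte markers were higher in KO, with sums of 4659 and 4683 CPM in WT and 9797 and 9837 in KO. The pericyte and smooth muscle sum was 986 and 1009 against 1906 and 1877 CPM, with 9 of 13 markers higher. Of 14 endothelial markers, 4 were higher and 1 lower, so that 35.7% were called beside 32.1% of all tested genes. Their sum was 379 and 377 CPM in WT and 540 and 543 in KO, of which Slco1c1 held 112 and 117 against 257 and 256. Of 8 fibroblast markers, 4 were higher and 0 lower. Other lists were lower in KO: all 12 oligodendrocyte markers (41600 and 41543 against 28712 and 28193 CPM), 9 of 10 oligodendrocyte precursor markers and 10 of 11 microglial and macrophage markers (183 and 192 against 83.1 and 82.3 CPM). The part of these markers in the result was not tested. Without WT replicate 2, the count of lower genes was 3 in place of 8, and Col11a2, Col16a1, Col18a1, Col24a1, Col5a3 and Lamc1 were not called (edgeR adjusted p of 0.0625 to 0.509). Without WT replicate 1, Col20a1, Col3a1 and Lamc1 were not called (0.0873 to 0.136). Without KO replicate 1, Col18a1, Col24a1 and Lamc1 were not called (0.0514 to 0.187), and without KO replicate 2, Col11a2 and Lamc1 (0.0985 to 0.123).

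**Figure D5:**
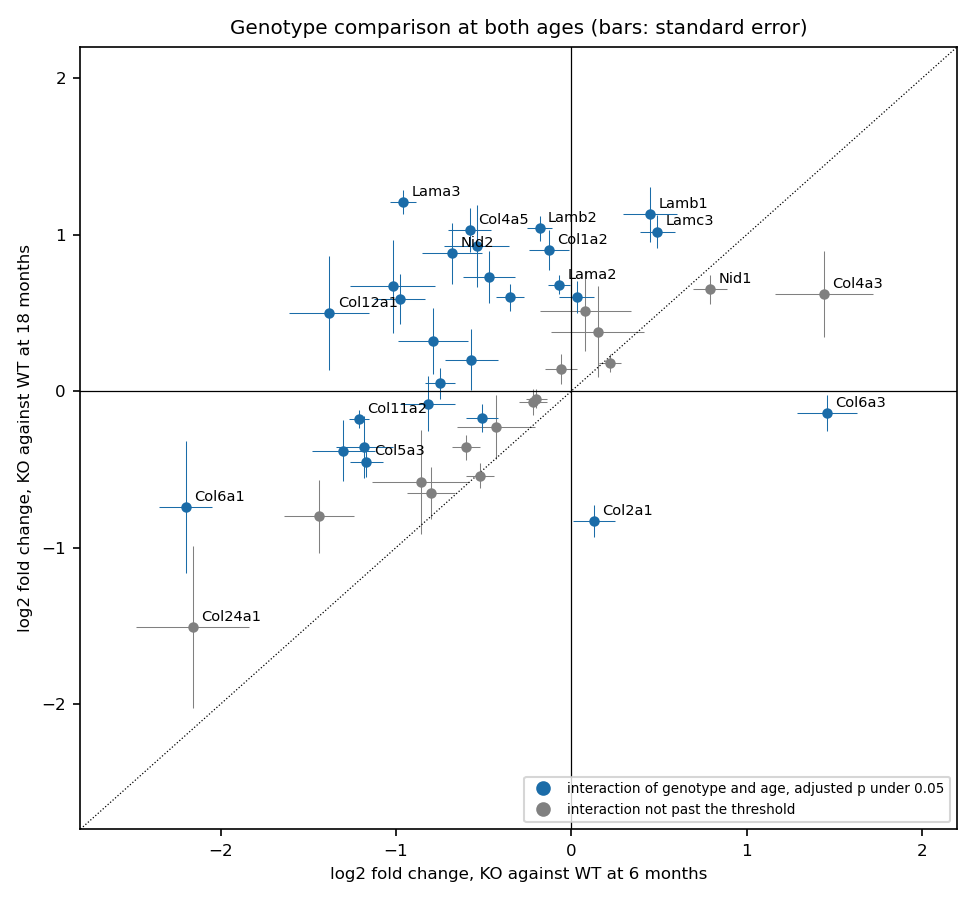
KO to WT log2 fold change in 18-month mice (vertical) plotted against that in 6-month mice (horizontal), with 1 point per gene and bars of 1 standard error. Lama3 lies at -0.96 and 1.21, Nid1 at 0.79 and 0.65, and Col24a1 at -2.16 and -1.51. The 18-month value of Col24a1 rests on 30 reads in the WT group and 12 in the KO group.

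Side by side, 4 genes were higher in KO at both ages: Lamb1, Lamc1, Lamc3 and Nid1. Over all tested genes, 1.61% were higher at both ages. Leaving out any single library removed a call of Lamc1 or of Lamb1, while Lamc3 and Nid1 kept theirs. Lower at both ages were 7 genes, Col11a2, Col16a1, Col18a1, Col20a1, Col24a1, Col4a2 and Col5a3, where 2.74% of all tested genes were. Without the 18-month WT replicate 2, 5 of these 7 lost the call at the older age, and Col20a1 and Col4a2 kept it. Lower at 6 months and higher at 18 months were another 7, Col1a1, Col3a1, Col4a5, Col5a2, Lama3, Lama5 and Nid2, where 6.38% of all tested genes were. The reverse pattern, higher at 6 months and lower at 18, was seen in 0 of the 55 genes and in 7.90% of all tested genes.

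The interaction term tested whether the change with age differed between KO and WT. It was higher (less decrease or more increase in KO) for 26 of 55 genes and lower for 2, where 18.4% of all tested genes were higher, 20.7% lower and 39.1% called. The median interaction was 0.64 on the log2 scale, against 0.01 over all tested genes. The interaction also uses the WT libraries of 6 months, which stood apart from the other groups. Lama3 had the largest value among the 42 genes (2.17, SE 0.105, edgeR adjusted p = 4.26e-14), followed by Col12a1 (1.89), Col6a2 (1.69), Col4a5 (1.61), Col1a1 (1.58), Nid2 (1.56), Col3a1 (1.46) and Col6a1 (1.46). Some of these had few reads at 18 months: Col6a1 had 27 in the WT group and 19 in the KO group, and Col12a1 had 24 and 40. The 2 lower genes were Col6a3 (-1.60, SE 0.208, edgeR adjusted p = 8.55e-07) and Col2a1 (-0.97, SE 0.156, edgeR adjusted p = 2.05e-05). Col4a1 (0.15), Col4a2 (-0.02), Hspg2 (0.20), Agrn (0.15), Nid1 (-0.14), Lamc1 (-0.04) and Col18a1 (0.15) were not called. Markers moved with the interaction as well. All 14 astrocyte markers were higher (median 1.90), and all 12 oligodendrocyte markers (median -1.79) and 10 of 11 microglial and macrophage markers (median -1.75) were lower. Counts higher and lower were 6 and 0 of 13 for pericytes and smooth muscle, 7 and 2 of 10 for oligodendrocyte precursors, and 4 and 0 of 8 for fibroblasts. They were 4 and 0 of 9 for GABA neurons and 0 and 3 of 8 for excitatory neurons. Endothelial markers had 4 higher and 1 lower of 14 (35.7% called, near the share of all genes). The part of these markers in the result was not tested.

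Leaving out single libraries removed 7 interaction calls. Col6a1 had an edgeR adjusted p of 0.368 without the 18-month KO replicate 1 and 0.0914 without the 18-month WT replicate 2. Col9a3 reached 0.260 without the 6-month KO replicate 1 and was lost in 4 further fits, without the 6-month WT replicate 2, either 18-month WT library or the 18-month KO replicate 1 (0.0862 to 0.130). Lamb1 was lost without a 6-month replicate 2 of WT or KO, the 18-month WT replicate 2 or the 18-month KO replicate 1 (0.0766 to 0.116). Col7a1 was lost without the 6-month WT replicate 1 or KO replicate 2 or an 18-month replicate 1 of either genotype (0.0585 to 0.113). Col5a1 was lost without a 6-month replicate 1 of WT or KO or the 18-month WT replicate 1 (0.0538 to 0.0605), Col11a1 without the 6-month KO replicate 2 or the 18-month KO replicate 1 (0.0567 to 0.0793), and Lamc3 without the 6-month WT replicate 2 (0.0796).

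The 17 genes below 5 CPM summed to 31.9 ± 2.84 CPM in 6-month WT, 28.1 ± 0.412 in 6-month KO, 15.3 ± 0.213 in 18-month WT and 16.4 ± 0.0163 CPM in 18-month KO libraries. Of the 13 that were tested, 8 were lower and 0 higher with age in WT, and 7 were lower and 1 higher in KO. Of all tested genes, 30.8% were lower and 28.2% higher in WT, and 17.9% were lower and 13.8% higher in KO. The higher one was Col9a1, the third chain of type IX collagen, at 1.83 and 0.836 against 2.67 and 2.76 CPM (log2 fold change 1.01, edgeR adjusted p = 0.0441). Lamb3, the beta chain that joins Lama3 in epithelial laminin, was at 2.80 and 1.14 CPM in WT and 0.573 and 0.358 in KO at 6 months (-2.04, edgeR adjusted p = 0.0110). Lama3 was at 88.3 to 180 CPM in the same libraries. Col22a1, Col6a5, Col6a6 and Col8a2 had too few reads for a test, and Col6a5 had 1 read in all 8 libraries.

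Genes that act on collagens and laminins were counted in 5 lists. Beside their counts stand the shares of all tested genes: with age 30.8% were lower and 28.2% higher in WT, and 17.9% were lower and 13.8% higher in KO. For collagen folding and modification in the endoplasmic reticulum, 11 of 21 tested genes fell and 5 rose with age in WT, and 4 fell and 3 rose in KO, which is 19.0% and 14.3% of the list and near the shares of all genes. Serpinh1, the collagen chaperone, fell from a mean of 132 to 35.4 CPM in WT (log2 fold change -1.89), was lower in KO than in WT at 6 months (-0.82) and higher at 18 months (0.79), with an interaction of 1.61. The prolyl hydroxylase P4ha2 fell from a mean of 35.0 to 8.53 CPM in WT (-2.06) and had an interaction of 2.22.

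For propeptide processing and cross-linking, 10 of 15 fell and 3 rose with age in WT (66.7% and 20.0%), and 7 fell and 1 rose in KO (46.7% and 6.67%), beside 30.8% and 28.2% of all genes in WT and 17.9% and 13.8% in KO. Adamts3, a procollagen N-proteinase, fell in WT (log2 fold change -2.23), while Pcolce2, an enhancer of the C-proteinase, rose (1.63). Bmp1, the C-proteinase itself, fell in KO from a mean of 134 to 75.3 CPM (-0.84).

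Among the receptors, 12 of 18 fell and 5 rose with age in WT (66.7% and 27.8%, beside 30.8% and 28.2% of all genes), and 9 fell and 3 rose in KO (50.0% and 16.7%, beside 17.9% and 13.8%). The laminin-binding integrin chains split: Itga6 (log2 fold change -1.64) and Itga7 (-1.69) fell in WT while Itgb4, the beta chain that pairs with Itga6, rose from a mean of 60.3 to 195 CPM (1.70). In KO at 18 months Itga6 (1.18) and the collagen receptor chain Itga1 (1.01) were higher than in WT. Of the other basement membrane and associated matrix proteins, 21 of 25 fell and 1 rose with age in WT (84.0% and 4.00%). In KO, 16 fell and 1 rose (64.0% and 4.00%). This list includes Dcn, Lum and Ogn, which are also on the fibroblast marker list. Fras1, a basement membrane adhesion protein, fell in WT from a mean of 19.6 to 2.47 CPM (-3.00), and Tinagl1 fell in KO from 23.7 to 7.05 CPM (-1.75). Smoc2, a calcium-binding matrix protein, was at a mean of 8.34 CPM in WT and 0.649 in KO at 6 months (-3.67).

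Proteases and inhibitors were mixed, with 9 of 16 lower and 4 higher with age in WT (56.2% and 25.0%, beside 30.8% and 28.2% of all genes), and 6 lower and 0 higher in KO (37.5% lower, beside 17.9%). Adamts4, an aggrecanase, rose in WT from a mean of 129 to 349 CPM (log2 fold change 1.44), while the membrane-type metalloproteinase Mmp14 (-1.83) and the inhibitor Timp3 (-1.37) fell. Between the genotypes at 6 months, 19.6% of all tested genes were lower in KO and 19.2% higher. The shares lower and higher were 42.9% and 14.3% for folding, 40.0% and 20.0% for processing, 33.3% and 33.3% for receptors, and 56.2% and 25.0% for proteases. Of 25 other basement membrane and associated matrix proteins, 13 were lower and 3 higher. At 18 months, 17.4% of all tested genes were lower in KO and 14.7% higher, and the list shares were 19.0% and 33.3%, 20.0% and 6.67%, 22.2% and 44.4%, and 43.8% and 25.0% in the same order, with 2 of the 25 other proteins lower and 6 higher. At that age 3 of 15 processing genes were lower and 1 was higher, so the lower share of that list lay near that of all genes.

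Some of the counts are uncertain because exon bases are shared with neighbouring genes and no source used here gives the strand setting of the counting. The shared part was 8.45% of the exon bases of Nid2, 6.27% of Lamc3, 6.07% of Col9a3, 5.65% of Col4a3 and 3.86% of Lama2.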

How the data were processed

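RNA was measured in 8 libraries, 2 per group. The authors' tools, per the submitters' processing notes, were featureCounts 1.5.0-p1, STAR 2.5.2a and CASAVA 1.8.2, and the genome was mm10. No source used here gives the annotation release or the treatment of multi-mapping reads. The deposited files hold raw counts per Ensembl gene ID. GENCODE M21 named 55480 of the 55573 IDs (99.8%). Counts were tested with edgeR 4.0.16 (quasi-likelihood F test, filterByExpr at a minimum count of 10, TMM, the 4 groups in 1 model, R 4.3.3), with Benjamini-Hochberg adjustment over 18205 genes and a threshold of 0.05, after a test of the code on simulated data. CPM use TMM-adjusted totals, and CPM per kb divide by the union of annotated exons. Named genes reached a mean of 5 CPM in a group; of each pathway list up to 3 genes with the smallest p per comparison could be named, with summed CPM for marker lists. The genes and lists were chosen with earlier results of these data known. Replicate numbers were not shown to pair libraries across groups. Alternatives were other scalings, DESeq2 1.42.0, no filter, fewer groups, a replicate block and left-out libraries. Counting depth limits genes below 5 CPM.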

Additional observations from a re-analysis of the deposited data

Results flagged for a closer look

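For 27 of the 42 genes the change from 6 to 18 months differed between KO and WT by the interaction term of the edgeR model, given here as log2 values, where a positive value means less decrease or more increase in KO. Among basement membrane genes these were Lama3 (2.17), Col4a5 (1.61), Nid2 (1.56), Lamb2 (1.21), Lama5 (0.95), Lama2 (0.74), Lamb1 (0.68), Lama4 (0.57) and Lamc3 (0.53). Lama2 and Lama3 were the genes called lower with age in WT and higher in KO. Among fibrillar collagens they were Col1a1 (1.58), Col3a1 (1.46), Col5a2 (1.20), Col11a2 (1.03), Col1a2 (1.03), Col11a1 (0.82), Col27a1 (0.80), Col5a1 (0.76), Col5a3 (0.72) and Col2a1 (-0.97). Among other collagens they were Col12a1 (1.89), Col6a2 (1.69), Col6a1 (1.46), Col23a1 (1.11), Col9a2 (0.92), Col7a1 (0.73), Col9a3 (0.34) and Col6a3 (-1.60). No cause was tested.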

How the results depend on the processing

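Counts of called genes were recomputed with RLE size factors, plain library totals, Gm26917 with mitochondrial genes and Malat1 left out, DESeq2, no low-count filter, only the compared groups, a replicate block and each library left out in turn. None of 3191 recomputed values for the 42 genes changed sign where called: 3066 stayed on their side of the threshold, 95 lost the call and 30 gained one. Of 154 calls, 31 were lost when at least 1 library was left out. With 1 library left out, the KO against WT count at 18 months ranged from 3 to 8 lower and 13 to 16 higher, and at 6 months from 21 to 28 lower and 5 to 6 higher. The age count ranged from 40 to 44 lower and 2 to 2 higher in WT and from 30 to 37 lower and 1 to 4 higher in KO, and the interaction from 20 to 27 higher and 2 to 3 lower. A lone remaining library was assumed to vary like the other groups. With the replicate block, the counts higher and lower were 6 and 29 at 6 months, 15 and 8 at 18 months, 2 and 45 with age in WT, 4 and 37 in KO and 26 and 2 for the interaction. Replicate numbers were not shown to pair libraries, since the correlations of their deviations were 0.00283 to 0.0911. Plain library totals shifted the median log2 fold change of all genes by 0.19 for the interaction, 0.14 for KO against WT at 18 months, 0.09 for age in KO, -0.10 for age in WT and -0.05 at 6 months. The share of all calls that were higher then went from 47.1% to 64.3% for the interaction, from 45.8% to 69.8% for KO against WT at 18 months and from 43.5% to 60.2% for age in KO, while the 55 genes gave 31 higher and 2 lower, 19 and 7, and 4 and 36. Both WT libraries of 6 months were left out in an alternative chosen after seeing the data: KO against WT at 18 months then gave 16 higher and 8 lower, and age in KO gave 4 higher and 36 lower.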
